A study of Mus musculus with 8 samples.

Results

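The genes described here encode subunits of Mediator, the TATA-binding protein associated factors (TAFs) and the subunits of RNA polymerase II (Pol II). They were chosen by symbol, as the listed genes whose name begins with Med, Taf or Polr2 followed by a subunit number or letter. This gave 61 of 10690 genes, comprising 29 Mediator genes, 20 Taf genes and 12 Polr2 genes, and 59 of them were listed in all 3 comparisons. Med18 and Taf9b were not listed in the comparison at 4 h of recovery, so counts there leave them out. They had 200 and 150 reads in nontreated cells, and every listed gene had at least 50 reads. Why they are missing was not tested. The rule used names and no measured value. By their known roles, 15 of the 20 Taf genes encode TFIID subunits. The other 5 are Taf1b, Taf1c and Taf1d of the Pol I factor SL1, Taf5l of the SAGA coactivator and Taf15, an RNA-binding protein of the FET family, so the TAF group is broader than TFIID.

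The cells were NIH3T3, an established line of mouse fibroblasts, kept proliferating in medium with calf serum and sampled as total RNA. NT cells were nontreated, AS cells received 250 μM sodium arsenite for 1 h, and RC4 and RC8 cells had the same treatment followed by normal medium for 4 h or 8 h. Each condition had 1 QuantSeq FWD library, so there was no replicate and no test, and AS, RC4 and RC8 were all compared with the same NT library. Arsenite is an inducer of oxidative and protein-folding stress, and the study used these conditions to follow alternative polyadenylation.

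Mediator links DNA-bound activators to Pol II through a head, a middle and a tail module held by the scaffold subunit Med14, and a dissociable kinase module controls that contact. TFIID, which is TBP with its TAFs, recognises core promoters and seeds the preinitiation complex. Pol II transcribes protein-coding genes, and some of its subunits are shared with Pol I and Pol III. A polyadenylation site (PAS) in an intron or internal exon ends the transcript before the normal stop codon, whereas a choice among PASs of the last exon changes the length of the 3′UTR.

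QuantSeq FWD reads start near the 3′ end of a transcript, so the number of reads does not grow with transcript length. Genes of the tables held 22.4 to 23.0 M reads per library, and a member held 62 to 8449 reads. Levels are given in rpm, which is reads per 1000000 reads on genes. Where 4 values stand in a row, their order is NT, AS, RC4 and RC8. Changes are log2 ratios over NT relative to the median gene of the comparison, and ± is the counting error on the log2 scale. Relative to total reads the median gene was at −0.04 for AS, −0.30 for RC4 and 0.01 for RC8. A gene was said to have risen or fallen when this change was 2-fold or more. Counting errors and the intervals of single genes and shares cover the counting of reads only, and PCR copies without molecular identifiers are not independent molecules. Intervals of medians show the spread between genes measured in the same libraries. They hold no counting error or spread between cultures, and are no test. A lower value in bulk RNA cannot be divided into fewer expressing cells and less RNA per cell. As a check of the labels, 8, 10 and 6 of 12 listed arsenite-inducible genes were higher in AS, RC4 and RC8. Fibroblast markers were listed for 8 of 8 genes, 0 of which fell in AS, 2 in RC4 and 3 in RC8, while 0 of 8 epithelial, immune and endothelial markers were listed.

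Most of these genes stayed within 2-fold of NT. In AS, 0 of 61 members rose, where 0.718% of all genes did, and 4 of 61 (6.56%) fell, where 2.93% of all genes did. In RC4, 2 of 59 (3.39%) rose and 5 of 59 (8.47%) fell, with 6.38% of all genes in each direction. Scaled to total reads instead, 1 member rose and 10 fell in RC4. With that scaling 7140 of all 10081 genes were below 0 in RC4, at a median of −0.30. The 6.38% does not apply to it, so these 2 counts have no share of all genes beside them. In RC8, 1 of 61 (1.64%) rose against 2.95% of all genes and 2 of 61 (3.28%) fell against 3.59%. These counts of 0 to 5 genes lie near the shares of all genes, and by themselves are no result about the complexes. The members' median change for AS was 0.05 (95% interval −0.05 to 0.15), that for RC4 −0.14 (−0.37 to 0.07) and that for RC8 0.12 (−0.06 to 0.23), against 0 for all genes by construction. Summed over members, the level was 3257 rpm in NT, 3129 rpm in AS, 2567 rpm in RC4 and 3574 rpm in RC8.

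**Figure D1:**
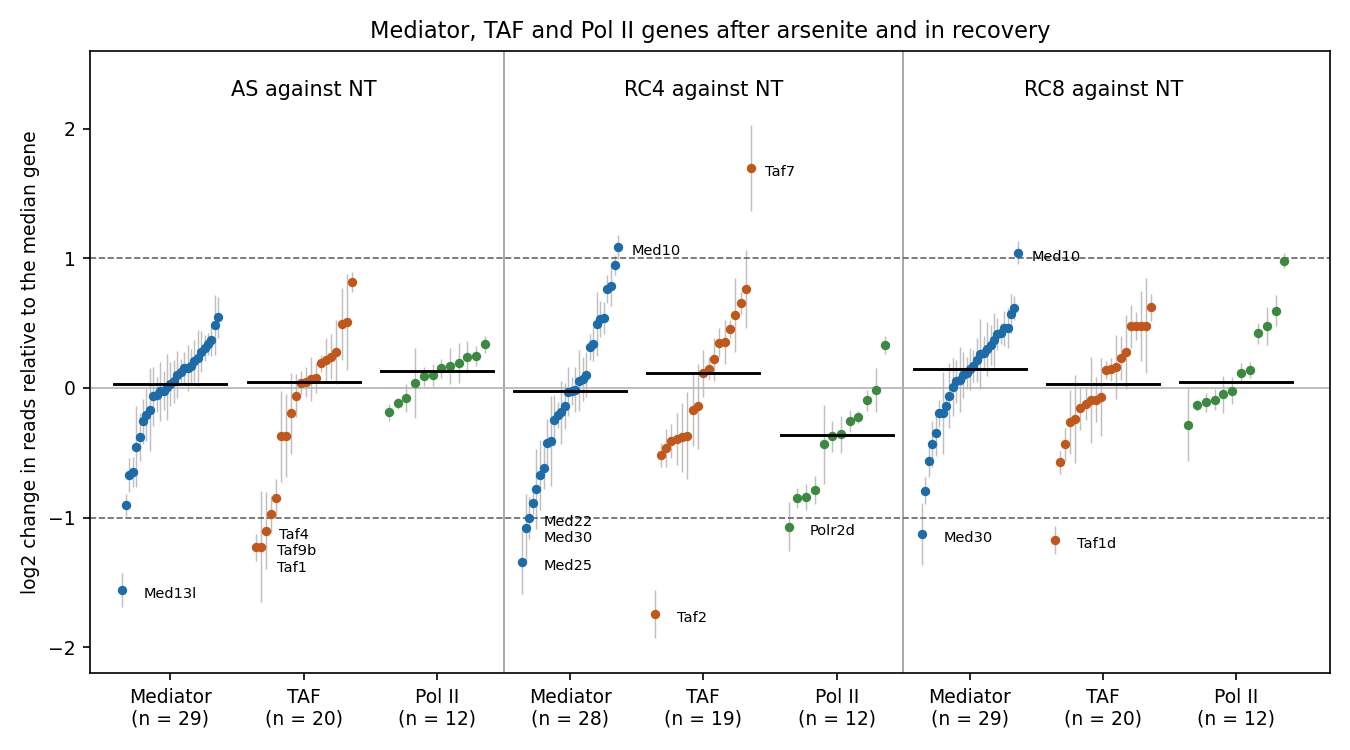
Change of each Mediator, TAF and Pol II gene in AS, RC4 and RC8 over NT (log2, relative to the median gene; y axis), ordered by value within each group. Thin lines are 95% counting intervals, short black lines are group medians and dashed lines mark 2-fold; 11 of 12 Pol II genes lie below 0 in RC4, and Taf9b in AS rests on an empty count column.

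Pol II subunit genes had little change at the end of arsenite, and most had their lowest level at 4 h of recovery. Their summed level was 1341 rpm in NT, 1352 rpm in AS, 881 rpm in RC4 and 1536 rpm in RC8. The median change for AS was 0.13, that for RC4 −0.37 (95% interval −0.84 to −0.10) and that for RC8 0.05. In RC4, 1 of 12 genes was above 0, beside 12 of 28 Mediator genes and 10 of 19 TAF genes. Of the listed Pol I and Pol III genes, 3 of 15 were above 0, so most genes of the other polymerases were not above it either. Among Pol II genes only Polr2d passed 2-fold. With scaling to total reads Polr2a (−1.15), Polr2b (−1.09) and Polr2e (−1.14) passed as well.

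Polr2a encodes the largest, catalytic subunit with the C-terminal repeat domain. Its level was 179 rpm in NT, 153 rpm in AS, 80.9 rpm in RC4 and 198 rpm in RC8, a change of −0.85 ± 0.04 in RC4 that did not reach 2-fold. Polr2b, the other large subunit of the catalytic cleft, had 96.6, 101, 45.7 and 130 rpm in the same order, and the change in RC4 was −0.79 ± 0.05. In both genes RC4 stood lowest and RC8 highest of the 4 libraries. Polr2d and Polr2g encode the partners of the stalk that binds emerging RNA, and their levels did not run together. Polr2d had 34.8 rpm in NT, 38.0 rpm in AS, 13.5 rpm in RC4 and 33.8 rpm in RC8, and fell in RC4 (−1.07 ± 0.10). Polr2g had 151, 186, 154 and 300.4 rpm, with a change of 0.98 ± 0.03 in RC8, just inside 2-fold, and of 0.33 ± 0.03 in RC4. It was the 1 Pol II gene above 0 in RC4.

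Of the subunits shared by the 3 polymerases, 4 were listed. Polr2e, Polr2f, Polr2h and Polr2l were all below 0 in RC4, at a median of −0.40, and all again in RC8, at a median of −0.10. In RC8 Polr2h was at −0.02 ± 0.05, and Polr2l was at −0.28 ± 0.14 on 189 reads. Of the 7 Pol II-specific genes, 6 were above 0 in RC8, at a median of 0.42. Polr2e, a shared subunit of the jaw, had 109 rpm in NT, 125 rpm in AS, 49.2 rpm in RC4 and 102 rpm in RC8. Polr2i, which has a role in start-site choice and transcript proofreading, had 43.2, 49.5, 27.4 and 65.6 rpm and was highest in RC8 (0.60 ± 0.06). Polr2c and Polr2j, which form the assembly platform, changed by −0.10 ± 0.04 and −0.02 ± 0.09 in RC4. Polr2m encodes Gdown1, a Pol II-associated inhibitor, and had the most reads of all members at 374, 335, 260.2 and 342 rpm. The groups were set by known roles, and the difference between them was not tested.

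Mediator genes had a summed level of 1102 rpm in NT, 991 rpm in AS, 986 rpm in RC4 and 1244 rpm in RC8. Med13l fell in AS, Med22, Med25 and Med30 fell in RC4, Med30 fell in RC8, and Med10 rose at both recovery times. Median changes for AS, RC4 and RC8 were 0.03, −0.03 and 0.15. The median in AS was −0.01 when total reads were used for scaling.

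The kinase module has the kinase Cdk8 or Cdk19, cyclin C (Ccnc), Med12, and Med13 or its paralogue Med13l, which join the module to the core complex. Med13l had 82.0 rpm in NT, 27.0 rpm in AS, 57.6 rpm in RC4 and 47.7 rpm in RC8. All treated libraries were below NT, and the fall in AS was 2.95-fold (−1.56 ± 0.07), the largest among the members in that comparison. Med13 had 52.9, 32.3, 73.6 and 36.2 rpm, so that AS (−0.67 ± 0.07) and RC8 (−0.56 ± 0.07) lay below NT and RC4 (0.76 ± 0.05) above it. Med12 stayed between 19.4 and 29.3 rpm. Among the partners outside the symbol rule, Cdk19 was at −0.91 ± 0.11 in AS, whereas Cdk8 was at 0.06 ± 0.08 and Ccnc at −0.01 ± 0.08. The paralogous pairs were thus unlike in AS, with Cdk19 and Med13l lower than Cdk8 and Med13, and neither difference was tested. TBP and the kinase partners were listed for 4 of 4 genes, and 0 passed 2-fold in any comparison.

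In the middle module, Med10, a small subunit conserved from yeast, had 65.5 rpm in NT, 78.8 rpm in AS, 113 rpm in RC4 and 135 rpm in RC8. It rose in RC4 (1.08 ± 0.05, 2.12-fold) and in RC8 (1.04 ± 0.05, 2.06-fold), with RC8 above RC4 in rpm but not relative to the median gene. With scaling to total reads its change in RC4 was 0.78, short of 2-fold. Med1, the contact of nuclear receptors, ran the other way early on at 143, 74.3, 65.6 and 136 rpm, with changes of −0.91 ± 0.04 in AS and −0.89 ± 0.04 in RC4, both short of 2-fold. The middle-module median in RC4 was 0.42, with 6 of 8 genes above 0. The head-module gene Med22 had 46.2, 49.9, 18.7 and 50.2 rpm, with RC4 alone apart from the other libraries (−1.001 ± 0.08, at the edge of 2-fold). Med17, the architectural subunit of the head, was at −0.62 ± 0.08 in RC4, and Med8 was highest in RC8 at 103 rpm (0.62 ± 0.05) after 66.7 rpm in NT. Med14, the scaffold, had 71.1, 44.1, 56.8 and 62.3 rpm and was lowest in AS (−0.65 ± 0.06).

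In the tail module, which receives activators, Med25 had 24.8 rpm in NT, 18.5 rpm in AS, 7.91 rpm in RC4 and 19.5 rpm in RC8. It fell 2.54-fold in RC4 (−1.35 ± 0.12). Med16 went the other way in RC4 at 0.79 ± 0.08, with 24.4, 34.6, 34.3 and 25.4 rpm. The other tail genes Med15, Med23 and Med24 had changes of −0.25, −0.42 and −0.67 in RC4. Among subunits that budding yeast lacks, Med30 had 19.1, 16.1, 7.34 and 8.78 rpm and fell in both RC4 (−1.08 ± 0.13) and RC8 (−1.13 ± 0.12), while Med28 had 93.3, 115, 146 and 125 rpm with a change of 0.95 ± 0.04 in RC4. Relative to the median gene, Med30 was the only member that fell at both recovery times and Med10 the only one that rose at both, which for Med10 did not hold with total reads.

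**Figure D2:**
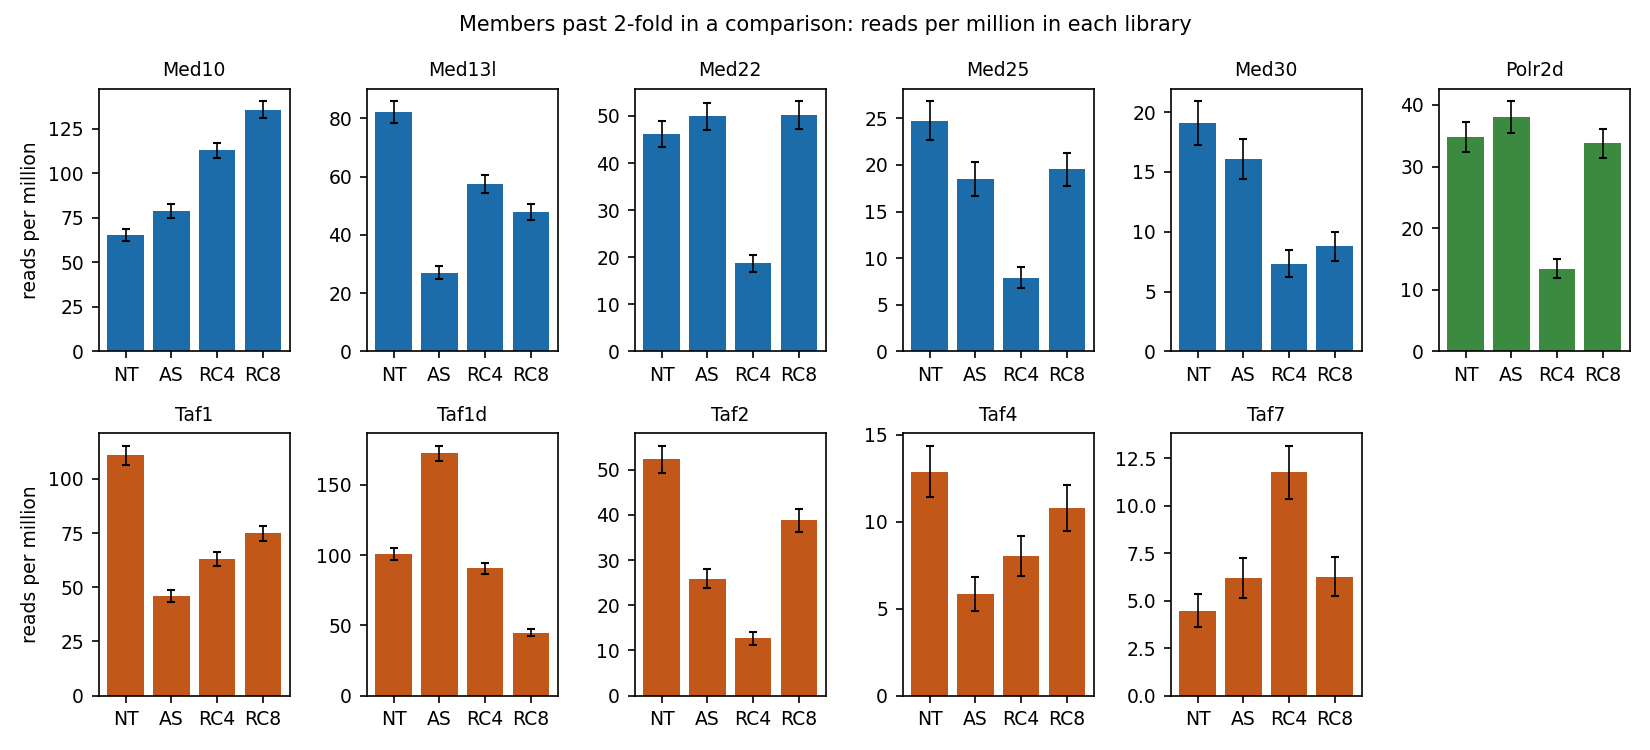
Level in rpm (y axis, from 0) in the NT, AS, RC4 and RC8 libraries for the 11 members that passed 2-fold in a comparison, without Taf9b. Error bars are 95% counting intervals of 1 library each; Med22 and Polr2d are low in RC4 alone, Med30 is low in RC4 and RC8, and Med10 is highest in RC8.

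TAF genes had a summed level of 814 rpm in NT, 786 rpm in AS, 700.1 rpm in RC4 and 794 rpm in RC8. Median changes for AS, RC4 and RC8 were 0.04, 0.11 and 0.03, and that for RC4 was −0.19 when total reads were used for scaling. Taf1 and Taf4 fell in AS, Taf2 fell and Taf7 rose in RC4, and Taf1d fell in RC8.

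Taf1 encodes the largest TFIID subunit, with bromodomains that bind acetylated histones. It had 111 rpm in NT, 46.1 rpm in AS, 63.0 rpm in RC4 and 74.9 rpm in RC8, a fall of 2.34-fold in AS (−1.23 ± 0.05) with the recovery libraries in between. Taf2, which contacts the initiator element, had 52.3, 25.9, 12.7 and 38.9 rpm. It was just inside 2-fold in AS (−0.97 ± 0.07) and fell 3.34-fold in RC4 (−1.74 ± 0.09), the largest fall of a member in any comparison. Taf4, a scaffold of TFIID, had 12.9, 5.84, 8.04 and 10.8 rpm and fell in AS (−1.10 ± 0.15). For these genes every treated library was below NT.

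Taf7, which binds Taf1 and restrains its acetyltransferase activity, had 4.47 rpm in NT, 6.19 rpm in AS, 11.7 rpm in RC4 and 6.26 rpm in RC8. Its rise in RC4 was 3.24-fold (1.69 ± 0.17) from 101 reads in NT to 269 reads. Taf1, its partner, was at −0.52 ± 0.05 in the same library. Taf9b is listed at 6.64 rpm in NT, 2.76 rpm in AS and 5.65 rpm in RC8, but 1 of its 2 count columns held 0 reads in AS while the other held 62, against 74 and 76 in NT. Its change of −1.22 in AS was −0.24 from the filled column alone. The fall of Taf9b therefore rests on the empty column, and among members with reads in every column 3 of 60 fell in AS. Among the SL1 genes, which serve Pol I, Taf1d had 101, 172, 90.8 and 44.9 rpm, with a change of 0.82 ± 0.04 in AS and a fall in RC8 (−1.17 ± 0.05). Taf5l, of SAGA, was at −0.85 ± 0.08 in AS, and Taf15 at 0.66 ± 0.04 in RC4.

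Among other genes of the machinery, 0 to 1 of each list rose and 0 to 2 fell per comparison, which is no result about the lists. General transcription factor genes were listed for 17 of 17, and in RC4 the TFIIH genes Gtf2h1 (1.07 ± 0.03) and Gtf2h4 (−1.23 ± 0.15) went opposite ways. Of 21 pausing and elongation genes, Ell2 rose in RC4 (1.05 ± 0.06), Hexim1, the inhibitor of P-TEFb, fell in RC4 with 144 rpm in NT and 43.9 rpm, and Nelfcd, a subunit of the pausing factor NELF, fell in RC4 (−1.06 ± 0.09) and RC8 (−1.15 ± 0.09). With scaling to total reads Gtf2h1 (0.77) and Ell2 (0.75) were short of 2-fold in RC4. Gtf2e2 (−1.13), Ercc2 (−1.02) and Polr1b (−1.24) then passed it in RC4, and Leo1 (−1.001) in AS. Among 15 listed genes of Pol I and Pol III, the Pol III catalytic subunit Polr3a rose in RC8 (1.15 ± 0.13), and their median in RC4 was −0.14 against −0.37 for Pol II genes. Their summed level was 883 rpm in NT and 650 rpm in RC4.

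PAS use was next described for the members. The tables give each PAS a label by its place in the gene and the fraction of reads that MAAPER, a model of the distance between read and PAS, assigned to it. Assigned reads are the fraction times the gene's reads, and intervals leave out the error of assignment. As listed for AS, 31 of 61 members (50.8%) had 1 PAS, near the 49.4% of all genes. PASs labelled as upstream of the last exon were listed for 11 members (18.0%), and for 15.8% of all genes. These PASs held 11.9% of members' reads in NT and 13.9% in AS, 12.4% and 13.5% in the RC4 table, and 12.2% and 10.5% in the RC8 table. For all genes the values were 8.11% and 8.23%, 8.19% and 9.41%, and 8.09% and 8.28% in the same order. The members' share leans on few genes, as 1 PAS of Taf1c had 3101 assigned reads in NT.

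Among members with PASs both upstream and in the last exon, the upstream share in AS rose by 10 points or more for 1 of 10, and for 7.64% of such genes overall. In RC4 it rose for 3 of 8 (19.2% overall) and in RC8 for 4 of 9 (7.18% overall). It fell as far for 0 of 10 (4.36%), 1 of 8 (4.25%) and 1 of 9 (9.81%) in the same order. Over all members with more than 1 PAS these were 1 of 30, 3 of 28 and 4 of 28 that rose, where 1.85%, 4.83% and 1.74% of all such genes did, and 0 of 30, 1 of 28 and 1 of 28 that fell, where 1.06%, 1.07% and 2.37% did. The genes that rose were Taf5 at all times, Taf6 and Med25 in RC4 and RC8, and Polr2i in RC8. The genes that fell were Med14 in RC4 and Polr2f in RC8. Taf5, Taf6 and Med25 had 116 to 717 reads per library.

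**Figure D3:**
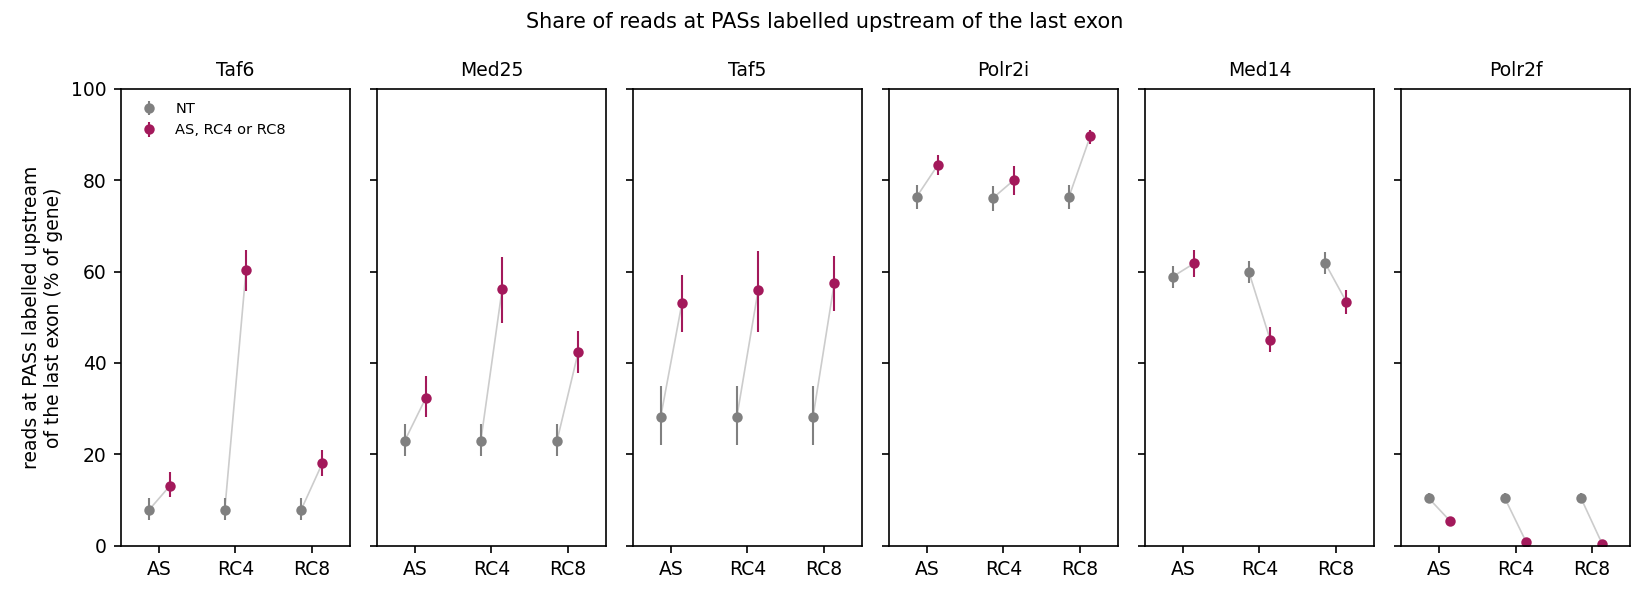
Share of a gene's reads at PASs labelled upstream of the last exon (percent, y axis) in NT (grey) and in the treated library (red) of each comparison, with 95% Wilson intervals. Taf6 goes from 7.72% to 60.4% in RC4, Taf5 is above 50% in every treated library, and Polr2f falls below 1% in RC4 and RC8.

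Taf6 encodes a histone-fold subunit of TFIID that pairs with Taf9. Its 2 PASs lie in intron 1, before any coding sequence, and in the last exon of 15. The first is shown because it took most reads in RC4 and stands beside adenosine-rich genomic sequence, and the second because it has a canonical signal. Sequences are from the mm9 genome, sense strand, ending at the PAS unless stated, with the canonical signal AATAAA (or its variant ATTAAA) and runs of 6 or more A after the PAS in capitals.
Taf6 intron 1 PAS, chr5:138627611-138627640, minus strand: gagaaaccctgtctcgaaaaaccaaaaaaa
Taf6, the 20 bases after that PAS, chr5:138627591-138627610: ggaaagAAAAAAAgAAAAAA
Taf6 last exon PAS, chr5:138619848-138619877, minus strand: agttcctcagAATAAAagttggatttgtaa
The intron PAS held 7.72% of Taf6 reads in NT (95% Wilson interval 5.70% to 10.4%), 13.1% after arsenite (10.6% to 16.1%), 60.4% at 4 h of recovery (55.8% to 64.8%) and 18.0% at 8 h (15.4% to 21.0%). Its level was 1.73 rpm in NT, 3.30 rpm in AS, 11.8 rpm in RC4 and 5.61 rpm in RC8. The last exon PAS had 20.6, 21.9, 7.77 and 25.6 rpm. In RC4 the intron PAS thus rose (3.08 ± 0.25) while the last exon PAS fell (−1.11 ± 0.13), and the summed Taf6 level changed by only 0.11 ± 0.09 (−0.19 with scaling to total reads). Of the 20 bases after the intron PAS, 16 are A, and their part in the reads there was not tested.

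Taf5, a WD-repeat subunit of TFIID, had few reads, from 116 in RC4 to 259 in RC8. Its upstream PAS lies in coding exon 2 of 11, with 32.7% of the coding sequence before it. It is printed because its share rose in all comparisons without a canonical signal in these 30 bases. Of these bases 16 are A, and their part in the reads there was not tested.
Taf5 exon 2 PAS, chr19:47145665-47145694, plus strand: gtttataatcaacatgaaaatgaagcaaaa
The share at this PAS was 28.1% (22.1% to 35.0%) in NT, 53.1% (46.9% to 59.2%) after arsenite, 55.9% (46.8% to 64.6%) at 4 h of recovery and 57.5% (51.4% to 63.4%) at 8 h. No treated interval overlapped that of NT. All comparisons use the same NT value, and Taf5 was chosen for this shift, so the lack of overlap is no test. Its level was 2.26 rpm in NT, 5.84 rpm in AS, 2.83 rpm in RC4 and 6.48 rpm in RC8, a rise in AS (1.41 ± 0.24) and RC8 (1.51 ± 0.23). The last exon PAS had 5.79, 5.16, 2.23 and 4.79 rpm and fell in RC4 (−1.07 ± 0.24).

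Med25 shows how the label of a PAS depends on the gene model. The PAS labelled intronic lies 5 nt past the annotated end of the gene in GENCODE vM1, and the PAS labelled as last exon lies 2626 nt past it. The sequences below show that the former has the canonical signal.
Med25 PAS labelled intron, chr7:52134756-52134785, minus strand: cccaacacccAATAAAgttccttttaacaa
Med25 PAS labelled last exon, chr7:52132135-52132164, minus strand: atagctcagtaaagatccaatttgattatc
The share at the gene's annotated end was 22.9% (19.6% to 26.6%) in NT, 32.4% (28.1% to 37.0%) after arsenite, 56.1% (48.8% to 63.1%) at 4 h of recovery and 42.4% (37.9% to 47.0%) at 8 h. The downstream PAS had 19.1 rpm in NT, 12.5 rpm in AS, 3.47 rpm in RC4 and 11.2 rpm in RC8, while the PAS at the annotated end had 5.67, 5.99, 4.44 and 8.28 rpm. The fall of Med25 in RC4 was therefore at the downstream PAS (−2.16 ± 0.18), and the other PAS was at −0.05 ± 0.19. Of the 24 PASs labelled upstream in 11 members, 9 in Med1, Med25, Taf1d and Taf8 lie in or past the last exon of the longest coding transcript.

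Med14 and Polr2f were the members whose upstream share fell. Med14 had most of its NT reads at a PAS in intron 25, after 79.1% of the coding sequence, which ends in a run of A and is printed for that reason.
Med14 intron 25 PAS, chrX:12263555-12263584, minus strand: taaatattgtaaaaatgtaaaaaaaaaaaa
The total upstream share of Med14 was 58.9% in NT and 61.8% in AS, 60.0% and 45.1% in the RC4 table, and 61.9% and 53.4% in the RC8 table. Within it, a PAS in intron 10 went from 2.76% (2.06% to 3.68%) to 10.6% (9.04% to 12.4%) in RC4 while the one in intron 25 went from 57.2% to 34.5%. Upstream PASs together had 41.9 rpm in NT, 27.2 rpm in AS, 25.6 rpm in RC4 and 33.3 rpm in RC8, and last exon PASs 29.2, 16.8, 31.2 and 29.0 rpm.

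Polr2f encodes a small shared subunit. Its internal PAS lies in coding exon 3 of 5, and it is set beside the last exon PAS because only the latter has a canonical signal.
Polr2f exon 3 PAS, chr15:78976556-78976585, plus strand: cttacatgaccaagtatgagcgggcccggg
Polr2f last exon PAS, chr15:78982168-78982197, plus strand: atgtgtaaatAATAAAcctcaccctttcca
The exon 3 PAS held 10.4% (9.34% to 11.6%) of reads in NT, 5.42% (4.68% to 6.27%) after arsenite, 0.80% (0.50% to 1.30%) at 4 h of recovery and 0.32% (0.17% to 0.62%) at 8 h. Its level dropped at each time, from 13.3 rpm in NT to 7.50, 0.702 and 0.386 rpm, the last 2 values being 16.1 and 8.87 assigned reads. The last exon PAS had 115, 131, 86.5 and 119 rpm. By the rule of 10 points RC8 passed and RC4, at −9.60 points, did not.

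Polr2i had most of its reads at exonic PASs before the last exon, with an upstream share of 76.4% in NT and 83.4% in AS, 76.1% and 80.1% in the RC4 table, and 76.4% and 89.7% in the RC8 table. The PAS in exon 5 of 6 accounted for most of the rise in RC8, from 49.7% (46.6% to 52.8%) to 62.2% (59.7% to 64.6%). The last exon PAS had 10.2 rpm in NT, 8.21 rpm in AS, 5.45 rpm in RC4 and 6.77 rpm in RC8, while upstream PASs had 33.0, 41.3, 21.9 and 58.8 rpm. The higher level of Polr2i in RC8 was thus found at PASs upstream of the last exon. Just outside the rule, Med25 moved by 9.50 points in AS, and Taf1d and Med14 by −9.01 and −8.52 points in RC8.

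**Figure D4:**
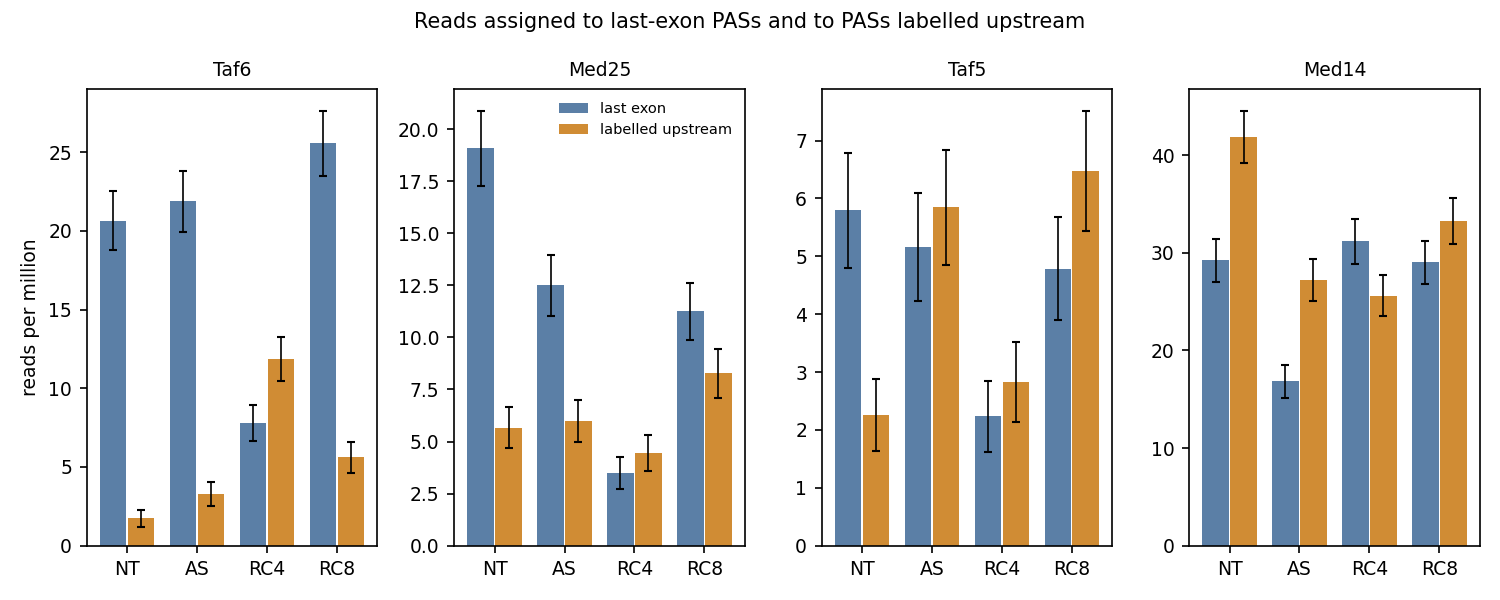
Level in rpm (y axis, from 0) assigned to last exon PASs (blue) and to PASs labelled upstream (orange) in each library, for 4 members whose upstream share moved by 10 points or more. Error bars are 95% counting intervals; in RC4 Taf6 has more upstream than last exon reads, and Med25 has 3.47 last exon against 19.1 in NT.

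Reads at last exon PASs were also counted apart in these members. They fell 2-fold or more for Med1 in AS (1 of 10, and 4.99% of such genes overall), for Med1, Taf5, Taf6 and Med25 in RC4 (4 of 8, and 10.3% overall), and for 0 of 9 in RC8 (4.17% overall). They rose for 0 of 10, 0 of 8 and 0 of 9 members, where 0.234%, 5.89% and 3.32% of such genes did. Med1 had 94.6 rpm at its last exon PAS in NT, 45.8 rpm in AS, 37.4 rpm in RC4 and 78.1 rpm in RC8. The whole gene was lower as well, at −0.91 in AS and −0.89 in RC4. The share of its last exon PAS moved less, from 66.1% to 61.7% in AS and from 63% to 57% in RC4. Its upstream-labelled PASs also lie in the last exon in GENCODE vM1, so these shares are among PASs of 1 exon. Taf1c, an SL1 gene, had 94.2% of its NT reads at a PAS in intron 6 of a gene of 15 exons, 93.1% in AS, 93.5% in RC8, and 100% in the RC4 table, which lists no other PAS. The sequence is printed because 28 of its 30 bases are A, so that the level of Taf1c is mostly that of reads beside a genomic A run.
Taf1c intron 6 PAS, chr8:122126004-122126033, minus strand: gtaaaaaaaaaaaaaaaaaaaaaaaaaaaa

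Among PASs of the last exon, REDu gives the log2 change in the ratio of the distal to the proximal PAS, so a negative value is a shift to the shorter 3′UTR. Over members, median REDu for AS, RC4 and RC8 was −0.10, −0.01 and −0.33, against −0.22, −0.37 and −0.14 for all genes. With both PASs at 5% or more, shortening of 2-fold or more was found for 1 of 19 members in AS (7.42% of all genes), 3 of 20 in RC4 (18.4%) and 4 of 19 in RC8 (11.6%). Lengthening as large was found for 3 of 19 in AS (2.38%), 3 of 20 in RC4 (4.92%) and 1 of 19 in RC8 (8.93%). REDi, the same ratio of the last exon PAS to an upstream PAS, had medians of −0.68, −0.40 and −0.59 in members and −0.17, −0.40 and 0.18 in all genes. The interval of the members' REDi median was −0.95 to 0.25 on 10 genes in AS and −1.52 to 1.09 on 9 genes in RC8. In RC4 it was −4.19 to 3.84 on 8 genes, and with at least 200 reads the median was 0.40. These genes include Med1, Med25 and Taf1d, which have upstream-labelled PASs in or past the last exon.

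Med16 was the only member past 2-fold toward the distal PAS in all comparisons. Its PASs lie 2019 nt apart, 226 nt and 2245 nt past the end of its longest coding transcript in GENCODE vM1. Both have AATAAA and are shown because a run of 14 A follows the distal one.
Med16 proximal PAS, chr10:79357454-79357483, minus strand: actggcccAATAAAgttctctgatgcacta
Med16 distal PAS, chr10:79355435-79355464, minus strand: atagtgtagatacatataacAATAAAtaaa
Med16, the 20 bases after the distal PAS, chr10:79355415-79355434: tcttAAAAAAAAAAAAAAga
The distal share of Med16 was 24.2% (20.8% to 27.9%) in NT, 39.5% (36.1% to 43.0%) after arsenite, 62.4% (59.0% to 65.7%) at 4 h of recovery and 46.0% (42.0% to 50.1%) at 8 h. REDu was 1.03 ± 0.18, 2.38 ± 0.18 and 1.42 ± 0.19. The part of the A run in the reads at the distal PAS was not tested.

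Med13, Med13l and Taf4 shifted the other way in RC4. The distal PAS of Med13, 3059 nt past the proximal one, held 68.9% in NT, 61.9% after arsenite, 46.8% at 4 h and 58.1% at 8 h of recovery, and REDu in RC4 was −1.46 ± 0.13. It too ends in a run of A, and is printed beside the proximal PAS for comparison. Of the 20 bases after each PAS, not printed, 13 are A at the distal and 11 at the proximal one. Their part in the reads was not tested.
Med13 proximal PAS, chr11:86083639-86083668, minus strand: aatatacatacgtgatattgttaggtggaa
Med13 distal PAS, chr11:86080580-86080609, minus strand: aaagtttatactttttaaaaaaaaaaaaaa
Med13l had 41.6% at its most distal PAS in NT, 36.2% after arsenite, 24.2% at 4 h and 36.3% at 8 h, with REDu of −1.27 ± 0.13 in RC4. Taf4 had 78.6% in NT, 68.0% in AS and 52.8% in RC4, with REDu of −1.72 ± 0.30, and 83.1% in NT and 66.1% in RC8 at another distal PAS that the RC8 table lists. The kinase-module paralogues Med13 and Med13l had their lowest distal share in RC4, where Med13 was above and Med13l below its NT level.

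**Figure D5:**
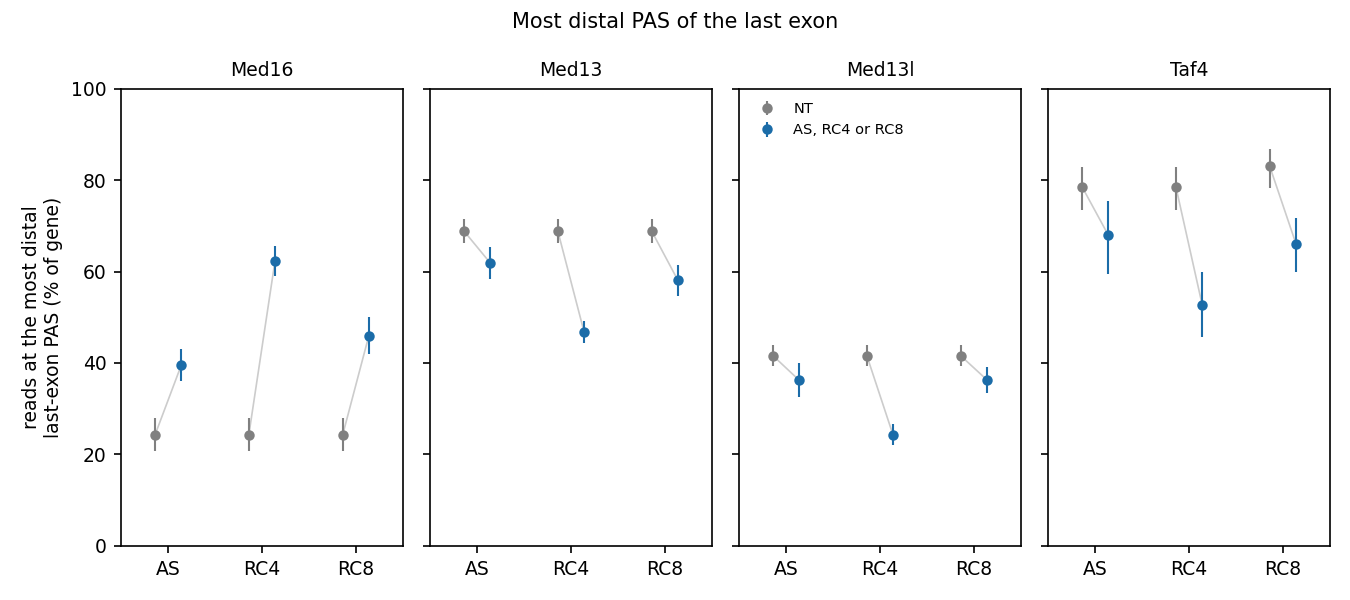
Share of a gene's reads at the most distal last exon PAS (percent, y axis) in NT (grey) and the treated library (blue) of each comparison, with 95% Wilson intervals. Med16 moves up to 62.4% in RC4, and Med13, Med13l and Taf4 move down, to 46.8%, 24.2% and 52.8%.

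Other shifts of 2-fold or more were found in 1 or 2 comparisons. The distal share of Med15, a tail subunit bound by SREBP activators, was 16.4% in NT, 8.73% after arsenite, 15.4% at 4 h and 7.94% at 8 h. This distal PAS lies 9255 nt past the end of the longest coding transcript in GENCODE vM1. Adenosine-rich genomic sequence stands before and after it, and its part in the reads there was not tested. Med17 had 80.9% at its distal PAS in NT and 67.7% in RC8, with the PASs 109 nt apart. Taf13, the histone-fold partner of Taf11, had 19.3% at its proximal PAS in NT and 6.32% in AS, and Med21 of the middle module had 12.1% and 5.88%. These pairs are 139 nt and 180 nt apart. Med11 (1.79 ± 0.30) and Taf7 (1.41 ± 0.44) lengthened in RC4. The distal PAS of Med11, 4832 nt from the proximal one, held 6.87% of reads in NT and 17.7% in RC4. It lies 5269 nt past the transcript end. Adenosine-rich genomic sequence stands before and after it, and its part in the reads there was not tested. The distal PAS of Taf7 held 19.0 assigned reads in NT. Both distal PASs were listed for RC4 only, so AS and RC8 give no value for these shifts.

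In sequence, PASs of the members were examined for AATAAA or ATTAAA on the sense strand in the 40 bases before the PAS. These were found at 58 of 97 last exon PASs (59.8%) and 8 of 24 upstream-labelled PASs (33.3%), against 52.9% and 45.9% of PASs of all genes. An A tract, 6 A in a row or 7 in 10, occurred in the 20 bases after 12 of 97 last exon PASs (12.4%, and 7.26% of all genes' PASs) and 2 of 24 upstream ones (8.33%, and 16.2%). In the 20 bases ending at the PAS it occurred at 20 of 97 (20.6%, and 21.2%) and 10 of 24 (41.7%, and 36.4%). No listed PAS is followed directly by A, so a run of A at the cleavage position is placed before the PAS. A match of letters is a description, and its bearing on read numbers was not tested.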

How the data were processed

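Values are those of 1 QuantSeq FWD library per condition. The authors trimmed reads with bbmap, mapped them to mm9 with STAR (2.5.2a in the submitters' processing notes) and ran MAAPER with PASs of PolyA_DB v3. Read counts per gene, not normalized, stand in 2 deposited columns per library. A deposited fraction gives, for each PAS, its part of a gene's reads. Columns named for condition 1 were taken as NT, from the methods. Deposited scores (RED, RLD) and p-values of the study's comparisons were not used, and QuantSeq REV libraries were not analysed here.

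The 2 columns differed about as much as sampling noise gives (mean chi-square per gene 0.974 to 1.03 where both held reads, 1 being the noise) and were summed as 1 sample. A column at 0 beside one of 50 to 82 reads occurred for 43 to 93 genes per library. Every listed gene had at least 50 reads. The log2 ratios of rpm were centred on the median gene of each table, with a counting error from the read numbers. NT levels are from the AS table unless another is named. REDu and REDi were recomputed from fractions. Shares have 95% Wilson intervals, and medians have order-statistic intervals over genes. Annotation was GENCODE vM1, which names the Polr2m locus Grinl1a and the Taf4 locus Taf4a, and sequences are from the mm9 (NCBIM37) genome.

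Members, role groups and lists (TBP and kinase partners, general transcription factors, pausing and elongation, Pol I and III subunits, arsenite-inducible genes, cell type markers) were chosen with earlier results of these data known. The role list held 67 names, 6 of which are not in the tables. Named genes are members past 2-fold, the 3 highest and lowest per complex and comparison with at least 200 reads, members whose upstream share moved by 10 points or REDu by 1, Polr2a, Taf6, the kinase partners and list genes past 2-fold. Taf5l, Taf15 and others given with values were added as examples of their group. The scoring was tested on simulated data. Alternatives were TMM (edgeR 4.0.16), size factors (DESeq2 1.42.0), total reads, at least 200 reads, each count column, 1.5-fold, 5 and 20 points, and PASs at 10% or more. The scaling of lists, the restriction to genes with reads in all 4 count columns and the A tract before a PAS were chosen after seeing the data. Tools were Python 3.11.15, numpy 2.4.6, pandas 2.3.3, scipy 1.17.1, matplotlib 3.10.9, pysam 0.24.0 and R 4.3.3.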

Additional observations from a re-analysis of the deposited data

Results flagged for a closer look

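Med13, which joins the kinase module to Mediator, lay on opposite sides of NT in AS and RC4, with log2 changes of −0.67 ± 0.07 and 0.76 ± 0.05 relative to the median gene. Its levels were 52.9 rpm in NT, 32.3 rpm in AS and 73.6 rpm in RC4, from 1 library each and against the same NT library, so the difference was not tested.

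Taf1d, a subunit of the Pol I factor SL1, was at 0.82 ± 0.04 in AS and fell in RC8 (−1.17 ± 0.05). Its upstream-labelled PASs had 77.8 rpm in NT, 138 rpm in AS and 32.4 rpm in RC8, and the difference was not tested.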

How the results depend on the processing

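No paired analysis was possible because each condition has 1 library. Of 901 alternative values for named genes, 851 stayed within the 95% counting interval, 50 moved and 0 changed the sign of a call. The 4 members past 2-fold in AS became 2 with at least 200 reads, 2 from count column 1 alone, 10 at 1.5-fold and 3 with reads in all 4 columns. The 7 in RC4 became 11 (1 higher, 10 lower) with scaling to total reads, 4 with at least 200 reads and 19 at 1.5-fold, and the 3 in RC8 became 8 at 1.5-fold. The members' median change in RC4 was −0.45 with total reads, and that of all genes was −0.30. Members whose upstream share moved numbered 5 at 5 points and 0 with at least 200 reads in AS (1 as reported), 7 and 2 in RC4 (4 as reported), and 8 at 5 points and 1 at 20 points in RC8 (5 as reported). With at least 200 reads the median REDi in RC4 was 0.40 in place of −0.40. Summed over the comparisons, with Nelfcd at both recovery times, the 4 lists of other machinery genes held 7 calls past 2-fold (3 higher, 4 lower) and 9 (1 higher, 8 lower) with total reads. Fewer genes enter under a read minimum, and other causes were not tested. Spread between cultures is unknown, and upstream values of Taf5 rest on under 150 assigned reads and those of Polr2f in recovery on under 20.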
